A study of Mus musculus with 33 samples.

Results

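The 43 genes described here run the cell division cycle, and they were chosen by name. They comprise 22 DNA replication genes, 14 mitosis genes and 7 regulators of G1, the phase before DNA synthesis. All 43 were found among the 52631 genes of the deposited table, and all 43 passed the filter on low values (at least 1 FPKM in at least 3 of the 33 libraries), which left 16508 genes for testing. FPKM, fragments per kilobase of transcript scaled to the mapped fragments of the library, corrects for transcript length and library size. The RNA came from mouse embryonic stem cells (mES) of strain 129S2/SvPas, grown with LIF on mitomycin-inactivated embryonic fibroblasts, and from the same kind of cell plated on gelatin and treated in serum. One arm received 10 µM all-trans retinoic acid (RA), and the other 10 µM retinoic acid with 5 µM CHIR (RA/CHIR), the usual short name of a GSK3 inhibitor that activates Wnt signalling. Both arms were sampled on days 4, 7 and 10 of treatment, then on day 16 after the inducers had been removed and the serum lowered, so that inducer removal and serum cannot be told apart at that step. The labels call the RA arm SMC-like cells and the RA/CHIR arm XEN-like cells. Untreated smooth muscle cells (SMC) and extra-embryonic endoderm cells (XEN), of the same strain and labelled as controls, were the reference lines. Each of the 11 groups had 3 poly(A) RNA libraries.

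Before S phase, the MCM helicase is loaded at origins of replication by CDC6 and CDT1, and CDC45, GINS and MCM10 switch it on as S phase starts. Cyclin D and cyclin E kinases drive entry into S phase by releasing E2F factors, which activate the replication genes. CDK inhibitors such as p21 hold this entry back. Genes of G2 and mitosis form a later wave, known for promoters with a CHR element and CCAAT boxes. Mouse embryonic stem cells are known for a short G1 and fast division, which slow as they differentiate.

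The labels do not say that the 3 libraries of a group came from separate cultures, so the p-values measure the spread between these libraries, which may be technical. Between 11573 and 13662 genes reached 1 FPKM per library, and libraries of the same group correlated at 0.980 to 0.989 over genes. Replicate 3 of the mES stood apart, since 1 gene took 28.0% of its summed FPKM, so the counts of calls against mES are given with and without it. Its markers listed for fibroblasts summed to 62.0 FPKM, against 36.0 and 36.5 in replicates 1 and 2. Its markers listed for neural cells summed to 68.6 FPKM, against 37.7 and 36.5. In RA/CHIR, 1 gene took 11.8% of the sum in replicate 2 of day 4 and 12.2% in replicate 1 of day 10. Pluripotency markers (Pou5f1, Nanog, Sox2, Esrrb, Zfp42) summed to 2404 to 2954 FPKM in the mES libraries. The smooth muscle markers summed to 17220 to 17840 FPKM in SMC, and the 7 endoderm markers to 665 to 710 FPKM in XEN, so the labelled types carried their markers. The endoderm sum was higher still on day 16 of RA/CHIR, at 1095 to 1192 FPKM. It was not particular to that arm, since on day 4 it was 557 to 573 FPKM in RA and 391 to 412 in RA/CHIR. In bulk RNA, fewer dividing cells and less of a transcript in each cell cannot be told apart.

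Promoter sequences are shown because E2F and CHR letters are what the replication and mitosis genes are known for. RefSeq (GRCm38.p6) gave windows of 250 bases before to 50 after the start for 34 of the 43 genes. The E2F motifs searched were TTCCCGC, the form TTGGCGC, the form TTCGCGC and the form TTGCCGC, on either strand; the second can overlap the third on the other strand. At least 1 of them stood in the windows of 12 of 18 replication genes (66.7%), 3 of 12 mitosis genes (25.0%) and 9.57% of all 32851 windows. The CHR letters TTTGAA, on either strand, stood in 9 of 12 mitosis genes (75%), 2 of 18 replication genes and 17.9% of all windows. CCAAT, on either strand, stood in 11 of 12 mitosis genes, 12 of 18 replication genes and 37.4% of all windows. These are matches of letters, not measured binding. No window was given for Aurkb, Ccnd1, Ccne2, Pole, Ccnd2, Ccna2, Mcm4, Gins2 and Gins1. The 3 replication promoters below, the 180 bases before the start on the gene's strand, carry E2F motifs in capitals: Mcm5 (chr8:75109329-75109508, plus strand), Mcm6 (chr1:128359706-128359885, minus strand) and Pola1 (chrX:93632156-93632335, minus strand).
Mcm5: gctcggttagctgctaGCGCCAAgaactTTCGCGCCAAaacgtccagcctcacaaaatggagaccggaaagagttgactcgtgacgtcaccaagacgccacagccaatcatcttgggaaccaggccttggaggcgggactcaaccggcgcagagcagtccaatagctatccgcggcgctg
Mcm6: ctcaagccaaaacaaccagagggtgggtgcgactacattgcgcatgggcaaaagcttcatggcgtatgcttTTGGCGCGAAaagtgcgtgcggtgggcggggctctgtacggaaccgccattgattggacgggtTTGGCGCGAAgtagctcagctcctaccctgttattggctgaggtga
Pola1: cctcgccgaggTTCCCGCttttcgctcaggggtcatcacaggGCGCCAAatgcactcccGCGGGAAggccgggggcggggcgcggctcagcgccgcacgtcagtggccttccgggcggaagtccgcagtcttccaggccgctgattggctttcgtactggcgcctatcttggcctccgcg
The 4 mitosis promoters below, of the same length, carry TTTGAA and CCAAT (or their reverse complements) in capitals: Cdk1 (chr10:69352913-69353092, minus strand), Cdc20 (chr4:118437344-118437523, minus strand), Top2a (chr11:99024190-99024369, minus strand) and Kif11 (chr19:37376202-37376381, plus strand).
Cdk1: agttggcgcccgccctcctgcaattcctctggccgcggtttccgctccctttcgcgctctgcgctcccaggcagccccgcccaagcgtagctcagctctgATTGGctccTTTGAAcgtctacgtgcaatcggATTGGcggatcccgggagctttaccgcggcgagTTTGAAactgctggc
Cdc20: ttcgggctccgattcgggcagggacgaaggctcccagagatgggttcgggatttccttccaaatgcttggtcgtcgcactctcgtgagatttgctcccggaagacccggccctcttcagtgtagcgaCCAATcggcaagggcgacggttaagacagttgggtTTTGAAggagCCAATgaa
Top2a: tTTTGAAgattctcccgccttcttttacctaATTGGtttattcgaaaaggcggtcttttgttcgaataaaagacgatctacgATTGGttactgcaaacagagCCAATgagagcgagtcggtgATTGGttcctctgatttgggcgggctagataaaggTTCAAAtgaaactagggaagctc
Kif11: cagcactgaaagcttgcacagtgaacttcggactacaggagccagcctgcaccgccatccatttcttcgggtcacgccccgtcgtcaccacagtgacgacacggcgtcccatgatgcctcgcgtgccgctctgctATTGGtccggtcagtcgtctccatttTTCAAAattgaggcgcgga

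Most replication genes and all 14 mitosis genes were lower than in mES by day 10 of both arms. Expressed as a percent of the mES mean, the median replication gene stood at 46.8, 35.2 and 22.6 on days 4, 7 and 10 of RA while the RA/CHIR arm gave 54.6, 39.2 and 22.4. The median mitosis gene stood at 62.7, 30.4 and 19.8 under RA, while RA/CHIR gave 49.9, 32.4 and 23.7. The 8 comparisons of a treated group with mES share the mES libraries, so they are set side by side and not counted as separate support. No stem cells were plated on gelatin in serum without an inducer. The inducers, the change of culture and time therefore cannot be told apart in the comparisons with mES.

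**Figure D1:**
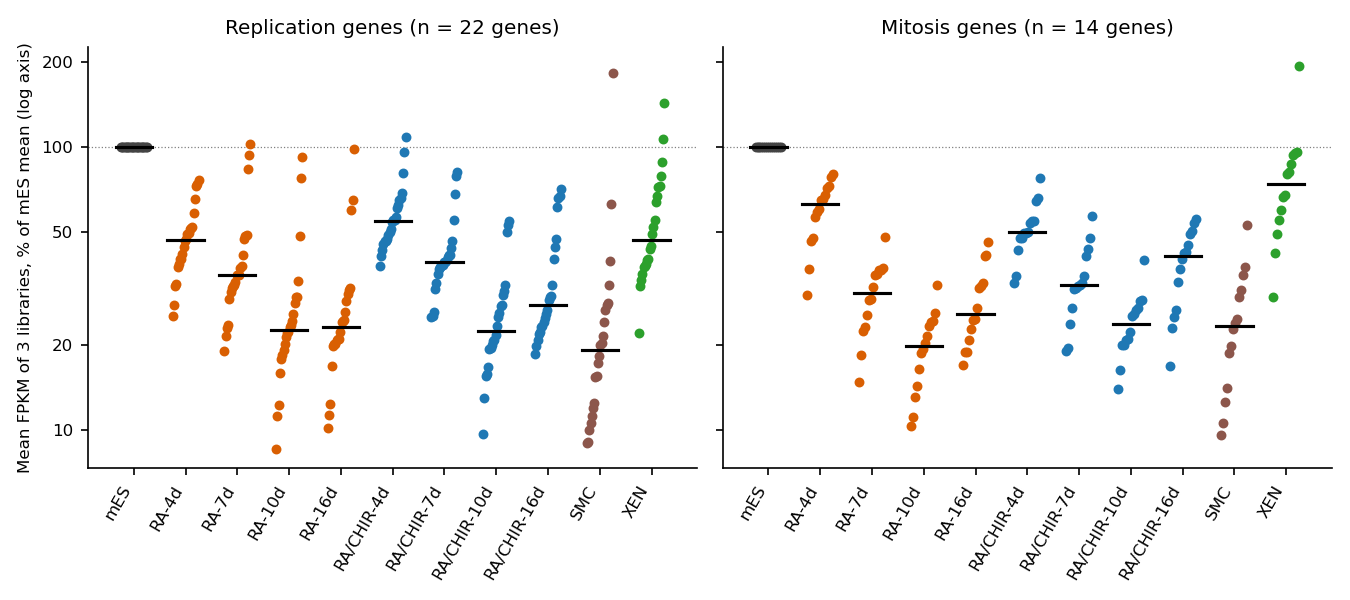
Each point is 1 of the 22 replication or 14 mitosis genes, plotted as its group mean FPKM in percent of the mES mean (log axis) in each of the 11 groups; bars mark the median over genes. The median mitosis gene drops to 19.8% on day 10 of RA and 23.7% on day 10 of RA/CHIR, and on day 16 it stands at 25.8% and 41.2%.

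A gene was called when limma, fitted to log2(FPKM + 1) over all 11 groups, gave a Benjamini-Hochberg adjusted p under 0.05 and a change of at least 1 log2 unit. On day 4 of RA, 13 of 22 replication genes and 4 of 14 mitosis genes were called lower than in mES, against 11.7% of all tested genes. On day 7 of RA these counts were 18 and 14 (all genes 13.8%), on day 10 they were 19 and 14 (all genes 16%), and on day 16 they were 19 and 14 (all genes 16.3%). In the RA/CHIR arm the counts were 7 and 7 on day 4 (all genes 9.13%), 18 and 13 on day 7 (13.2%), 19 and 14 on day 10 (15.5%), and 18 and 11 on day 16 (18.3%). Without replicate 3 of the mES the counts were 11 and 4 on day 4 of RA, 17 and 13 on day 7 of RA, 7 and 5 on day 4 of RA/CHIR, and 17 and 12 on day 7 of RA/CHIR, and those of days 10 and 16 were the same numbers. The day 7 calls lost without it were Gins2 and Cdk1 in RA (-0.94 and -0.96) and Pole and Birc5 in RA/CHIR (-0.998 and -0.88). None of these 36 genes was called higher than mES at any of the 8 points, where 9.06% to 20.4% of all genes were. Leaving out any single library, replicate 3 of the mES included, moved the count over all 43 genes, called in either direction, between 20 and 23 for day 4 of RA (22 with all libraries; all genes 23.4%) and between 17 and 20 for day 4 of RA/CHIR (19 with all libraries; all genes 18.2%). Quantile normalization lowered the second count to 10.

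Among the replication genes, those of the helicase and its activators were lowest on day 10 relative to mES. Mcm5 (chr8:75109569-75128439, GRCm38), a subunit of the MCM2-7 ring that unwinds DNA, read 237.1, 235.9 and 291.7 FPKM in the 3 mES libraries. It read 27.7, 29.3 and 28.6 FPKM on day 10 of RA, and 26.7, 22.4 and 24.6 FPKM on day 10 of RA/CHIR. Every treated library lay far below every mES library, and the RA/CHIR libraries lay just below those of RA. By limma the log2 change from mES was -3.11 ± 0.08 (SE) on day 10 of RA (adjusted p = 1.31e-21) and -3.32 ± 0.08 on day 10 of RA/CHIR (adjusted p = 4.38e-22). Over the 6 subunits the median level on day 10 was 19% of mES in RA and 19.6% in RA/CHIR, and over the genes that activate the helicase it was 19% and 18.7%.

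Mcm10 (chr2:4989714-5012791), a factor that helps switch the helicase on, read 54.0, 58.3 and 59.4 FPKM in mES. It was down to 4.10, 4.61 and 5.95 FPKM on day 10 of RA and to 6.80, 6.60 and 8.82 FPKM on day 10 of RA/CHIR, with no overlap between the groups. Its change from mES was -3.32 ± 0.16 log2 units on day 10 of RA (limma, adjusted p = 4.86e-16), the largest among the 22 replication genes there. Pcna, the sliding clamp of the replication fork, averaged 277.2 ± 34.2 FPKM in mES (SD, n = 3), 50.9 ± 5.38 on day 10 of RA and 69.3 ± 4.29 on day 10 of RA/CHIR. Reads of the copy Pcna-ps2, listed at up to 107.2 FPKM, could be shared with it.

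Of the 3 genes that supply nucleotides, Rrm1 and Tyms kept more of their level and Rrm2 did not. The median of Rrm1, Rrm2 and Tyms on day 10 was 48.4% of mES in RA and 53.2% in RA/CHIR, the highest of the 6 replication roles in both arms, but Rrm2 alone stood at 24.2% and 15.8%. A kept level was not particular to these 3 genes, since the clamp loader gene Rfc3 stood at 77.5% and 50.1%. Rrm1 (chr7:102441695-102469771), the large subunit of ribonucleotide reductase, read 71.2, 74.0 and 82.0 FPKM in mES and 67.3, 69.8 and 72.0 on day 10 of RA. These libraries overlap, and the difference was -0.12 ± 0.07 log2 units (95% interval -0.26 to 0.03; limma, adjusted p = 0.134). On day 10 of RA/CHIR it read 40.8, 40.0 and 40.0 FPKM, below every library of mES and of RA. Rrm2, the small subunit of the same enzyme, averaged 158.8 ± 10.6 FPKM in mES, 38.5 ± 2.87 on day 10 of RA and 25.1 ± 1.32 on day 10 of RA/CHIR. For Tyms, thymidylate synthase, the mES libraries themselves spread from 42.1 to 81.3 FPKM.

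All 14 mitosis genes were called lower than in mES on day 10 of each arm. Mki67 (chr7:135689784-135716361), the gene of the proliferation marker Ki-67, read 21.9, 23.6 and 21.2 FPKM in mES. It read 5.14, 5.12 and 5.84 FPKM on day 10 of RA and 4.96, 4.82 and 4.97 FPKM on day 10 of RA/CHIR. Both day 10 groups lay below all mES libraries, by -1.87 ± 0.06 and -1.97 ± 0.06 log2 units (limma, adjusted p = 1.19e-19 and 5.01e-20). Ccnb1 (chr13:100778650-100786570), cyclin B1 of the kinase that starts mitosis, read 179.1, 176.1 and 185.7 FPKM in mES, 22.8, 24.1 and 23.6 on day 10 of RA, and 34.4, 34.2 and 39.2 on day 10 of RA/CHIR. Here the 3 groups were fully apart, with RA lowest. Its kinase partner Cdk1 averaged 219.1 ± 23.5 FPKM in mES, 70.9 ± 1.71 on day 10 of RA and 87.0 ± 2.43 on day 10 of RA/CHIR (SD, n = 3). Bub1b, a spindle checkpoint kinase, fell furthest among the 14, by 3.12 ± 0.07 log2 units on day 10 of RA and by 2.73 ± 0.07 on day 10 of RA/CHIR. Plk1, a mitotic kinase, averaged 71.4 FPKM in mES, 16.6 on day 10 of RA and 18.9 on day 10 of RA/CHIR, and Cdc20, the activator of the anaphase-promoting complex, averaged 197.2, 38.1 and 41.2.

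Within the RA arm, day 10 against day 4 called all 14 mitosis genes lower (median -1.57) and 9 of 22 replication genes (median -0.89), against 5.12% of all tested genes. Birc5, whose product survivin guides chromosome segregation, fell by 1.92 ± 0.12 log2 units, Ccnb1 by 1.83 ± 0.05, and Ccna2, cyclin A2, by 1.80 ± 0.06. Within the RA/CHIR arm the same step called 15 of 22 replication genes lower (median -1.18) and 10 of 14 mitosis genes (median -1.11), against 4.1% of all genes. Mcm5 fell by 2.12 ± 0.08 log2 units there, the GINS subunit Gins1 by 1.61 ± 0.12 and Cdc6 by 1.56 ± 0.10. The difference between the arms in this step was tested as an interaction. Of the mitosis genes 13 of 14 passed at adjusted p under 0.05 at any size, all with the smaller fall in RA/CHIR (median difference 0.46; all genes 19.4% in that direction), and Aurkb, Aurora kinase B, missed at 0.0534. Of the replication genes 9 of 22 passed with the lower change in RA/CHIR (all genes 21.1% in that direction), and 7 did under TMM-type scaling. Not all of the 9 fell in both arms. From day 4 to day 10 of RA, Rrm1 went from 73.0% to 92.0% of mES and Rfc3 from 76.7% to 77.5%. Called in this interaction were 6 of the 43 genes (all genes 14.1%), the replication gene Rrm1 and 5 G1 regulators.

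The arms had separated by class already on day 4. With no minimum change, 14 of 22 replication genes were higher in RA/CHIR than in RA and none was lower (all genes 21.5% higher). In contrast, 7 of 14 mitosis genes were lower in RA/CHIR and none was higher (all genes 21.4% lower). These differences were small: the class medians were 0.29 and -0.22 log2 units. Pcna read 132.3, 126.2 and 126.7 FPKM in RA/CHIR and 89.5, 92.4 and 91.3 in RA, with no overlap. Mki67 read 11.7, 11.8 and 12.3 FPKM in RA/CHIR and 16.6, 16.2 and 16.0 in RA, again with no overlap, in the other direction. None of the 36 replication and mitosis genes reached 1 log2 unit on days 4, 7 or 10, where 7.63%, 10.7% and 15.4% of all genes were called in either direction. On day 7, at any size, 7 replication genes were higher in RA/CHIR and 4 lower, and 7 mitosis genes were higher and 1 lower (all genes 22.9% higher and 24.4% lower). On day 10 the split was 6 and 6 for replication genes and 11 and 0 for mitosis genes (all genes 27.2% higher and 28% lower). The mitosis class median thus lay at -0.22 on day 4, 0.23 on day 7 and 0.26 on day 10.

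**Figure D2:**
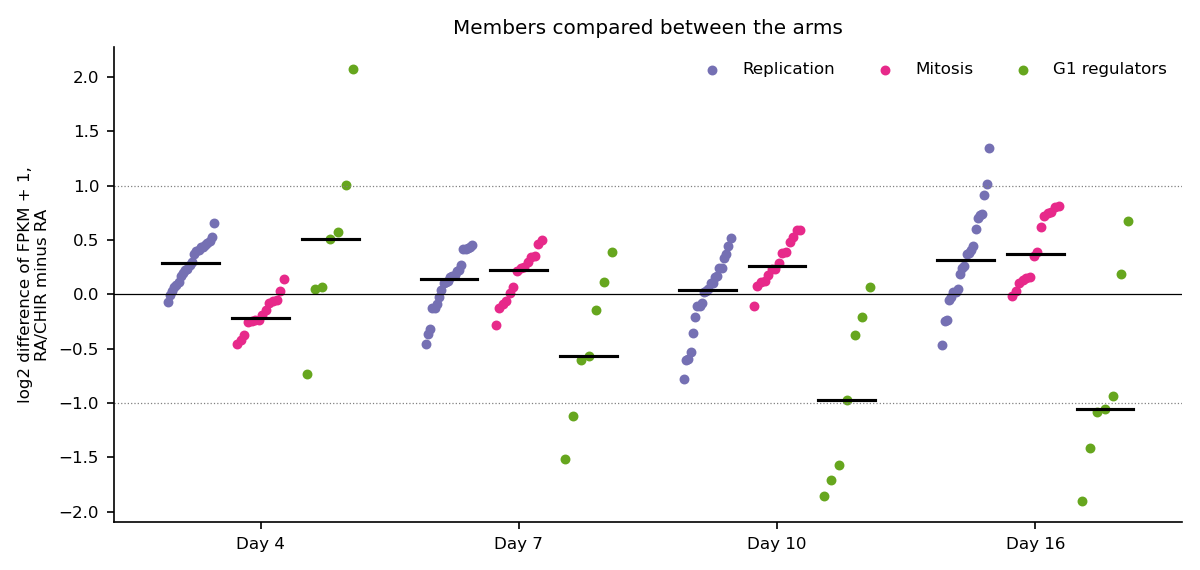
Each point is 1 gene's log2 difference RA/CHIR minus RA, fitted on log2(FPKM + 1), by class at days 4, 7, 10 and 16; bars are class medians and dotted lines mark a difference of 1 log2 unit. On day 4 the replication median is 0.29 and the mitosis median -0.22, and the points past the dotted lines on days 4 to 10 are G1 regulators.

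After the inducers were removed, the mitosis genes rose in both arms. All 14 had been lowest on day 10 in each arm, among the 4 days. From day 10 to day 16 of the RA arm all 14 were higher at adjusted p under 0.05 with no minimum change (0.32 to 0.87 log2 units, largest adjusted p 0.0123; all genes 23.6% higher). Under quantile normalization 13 of 14 passed. None reached 1 log2 unit, and 0 of the 43 genes were called in limma, where 9.17% of all genes were; 28 of 43 passed at any size (all genes 41.6%). In the RA/CHIR arm all 14 were likewise higher (0.25 to 1.13 log2 units, largest adjusted p 0.0429; all genes 28.8% higher), and 12 of 14 under quantile normalization. Replication genes rose in greater number in the RA/CHIR arm, where 15 of 22 were higher and 1 lower at any size, than in the RA arm, where 5 were higher and 4 lower (all genes 26.3% lower in RA/CHIR and 18% lower in RA). In the interaction 11 replication genes passed with the higher change in RA/CHIR and 1 with the lower change, whether or not the gene rose in both arms (all genes 20.5% and 22.8%). For mitosis genes these numbers were 6 and 2 of 14. Called in this interaction were 2 of the 43 genes (all genes 14.8%), Cdc6 and Ccne2. Marker genes of cell types moved over the same step. The 7 markers listed for fibroblasts are collagen and matrix genes and Thy1. They summed to 204 to 220 FPKM on day 10 of RA and 2924 to 3610 on day 16, and to 26.4 to 27.7 and 428 to 466 FPKM in RA/CHIR. Their sum was highest in SMC, at 11682 to 12005 FPKM, so they do not tell fibroblasts from smooth muscle cells here. The smooth muscle markers went from 1147 to 1160 FPKM on day 10 of RA to 7190 to 8116 on day 16. The part of these cell types in the rise was not tested.

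Of the 43 genes 6 were called in the RA/CHIR arm from day 10 to day 16, against 14.8% of all genes. Cdc6 (chr11:98907801-98923940), which loads the helicase at origins, read 5.53, 4.82 and 5.07 FPKM on day 10 of RA/CHIR and 18.0, 17.2 and 17.8 on day 16. In the RA arm it read 5.07, 4.91 and 5.16 FPKM on day 10 and 6.66, 5.43 and 7.07 on day 16. Only the RA/CHIR day 16 group stood well above the rest. Its rise was 1.61 ± 0.10 log2 units in RA/CHIR (limma, adjusted p = 2.08e-13), and the rises differed between the arms by 1.32 ± 0.14 (adjusted p = 1.61e-08). Cdc45, part of the active helicase, read 7.86, 6.85 and 8.12 FPKM on day 10 of RA/CHIR and 16.7, 19.4 and 15.9 on day 16, a rise of 1.09 ± 0.09. Mki67 rose by 1.13 ± 0.06 to 11.7, 12.8 and 11.5 FPKM in RA/CHIR, and on day 16 of RA it read 9.85, 8.52 and 9.14 FPKM. Birc5 rose by 1.02 ± 0.12, a call that was lost without replicate 3 of day 10 (0.98), without replicate 3 of day 16 (0.96) or under quantile normalization (0.94). The other 2 calls were Ccnd3, higher, and Ccnd1, lower. Of all calls in the RA arm step 80.4% were higher, and 69.9% under quantile normalization.

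**Figure D3:**
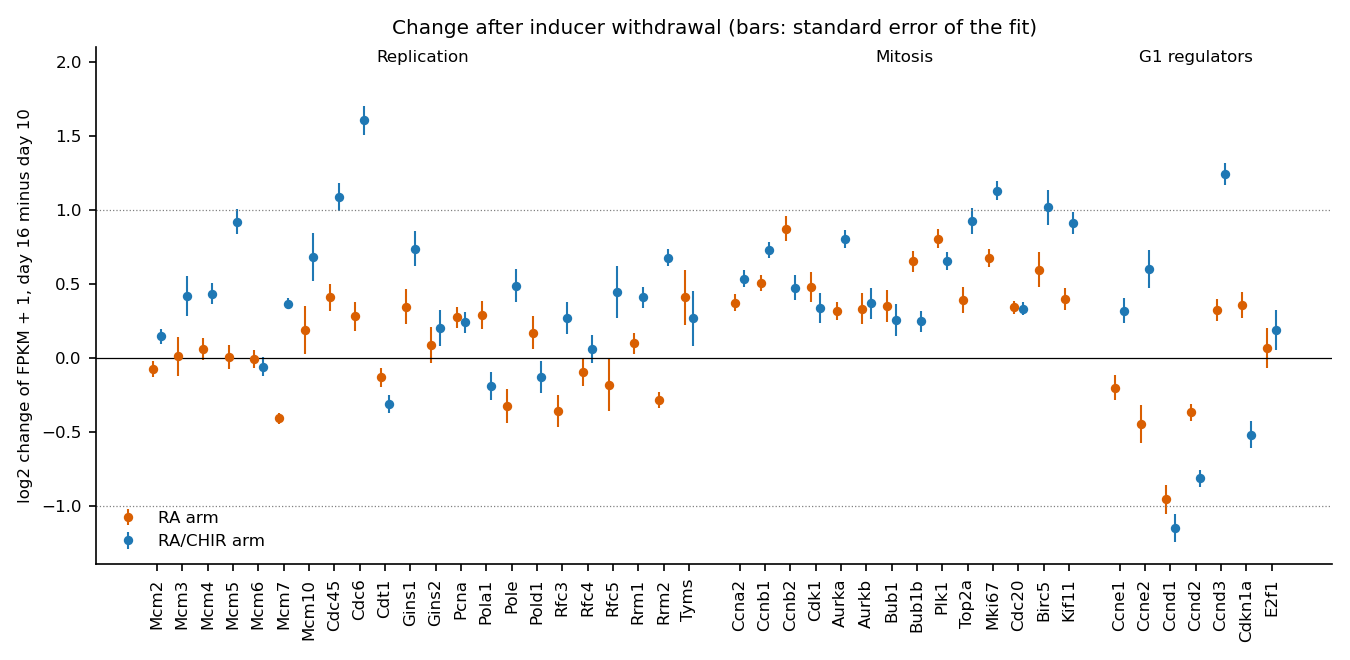
Each point is 1 gene's log2 change from day 10 to day 16 with its standard error, for the RA arm and the RA/CHIR arm, with dotted lines at 1 log2 unit in each direction. All 14 mitosis genes lie above 0 in both arms, and Cdc6 at 1.61 has the highest RA/CHIR value.

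On day 16 the arms differed in 6 of the 43 genes (all genes 21.3%). Cdc6 was higher in RA/CHIR by 1.34 ± 0.10 log2 units (limma, adjusted p = 4.22e-12). Mcm10 read 11.3, 12.7 and 13.4 FPKM in RA/CHIR and 7.14, 6.28 and 3.95 in RA, a difference of 1.01 ± 0.16 (adjusted p = 4.8e-06). That call was lost without replicate 3 of RA (0.80) or without replicate 3 of RA/CHIR (0.96). At any size 14 replication genes were higher in RA/CHIR and 2 lower, and 9 mitosis genes were higher and none lower (all genes 30.1% higher and 31.8% lower). Ccnb1 was at 58.5, 62.6 and 59.2 FPKM in RA/CHIR and 33.4, 33 and 35.2 in RA, and Top2a, the topoisomerase that untangles sister chromosomes, averaged 88.4 ± 2.36 against 57.8 ± 9.01 (SD, n = 3). All 5 pluripotency markers were also higher on day 16 of RA/CHIR, where they summed to 178 to 188 FPKM against 7.5 to 9.7 in RA, with Pou5f1 the largest. The markers listed for fibroblasts, whose sum was highest in SMC, were lower on day 16 of RA/CHIR, at the day 16 sums given above. The part of these cell types in the differences was not tested.

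Among the G1 regulators the 3 D-type cyclins, which pair with CDK4 and CDK6, went separate ways. E2f1 stood at 23.8% and 25.4% of mES on day 10 of RA and RA/CHIR, near the replication medians of that day. It was further from them elsewhere, at 29.2% against 46.8% on day 4 of RA and 88.1% against 19.1% in SMC. Ccnd2 (chr6:127125162-127152193) was near silent in mES at 1.45, 1.48 and 1.71 FPKM. It read 24.6, 25.3 and 25.4 FPKM on day 4 of RA and 83.2, 77.8 and 83.4 on day 10, with no overlap between the 3 groups. By limma it was 5.02 ± 0.06 log2 units above mES on day 10 of RA (adjusted p = 8.98e-29), where 16.5% of all genes were called higher. On day 10 of RA/CHIR it read 39.6, 43.1 and 40.7 FPKM, 4.05 ± 0.06 above mES (all genes 14.1% called higher). On day 16 it was down to 22.1 to 23.9 FPKM in RA/CHIR and stood at 61.1 to 65.8 in RA, a difference of -1.42 ± 0.06 between the arms (adjusted p = 3.56e-17).

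The order of the arms turned round for Ccnd1 (chr7:144929931-144939925), which encodes cyclin D1. It read 12.1, 11.4 and 10.9 FPKM in mES, but 1.90, 1.92 and 2.35 on day 4 of RA against 11.5, 10.9 and 13.2 on day 4 of RA/CHIR. On day 10 it read 36.8, 40.1 and 37.9 FPKM in RA and 11, 10.1 and 12.2 in RA/CHIR. The arms did not overlap on either day. The difference RA/CHIR minus RA was 2.08 ± 0.10 log2 units on day 4 (limma, adjusted p = 1.73e-15) and -1.71 ± 0.10 on day 10 (adjusted p = 3.69e-14). The change from day 4 to day 10 thus differed by -3.78 ± 0.14 (adjusted p = 1.56e-17), the largest interaction among the 43 genes. On day 16 Ccnd1 read 3.85, 4.23 and 5.29 FPKM in RA/CHIR and 18.2, 20.1 and 19.5 in RA, and the step from day 10 was -1.15 ± 0.10 and -0.96 ± 0.10 log2 units. The RA step reached -1.10 under quantile normalization.

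Ccnd3 (chr17:47505051-47599691), cyclin D3, was the main D-type cyclin of mES at 353.7, 322.6 and 427.7 FPKM. It read 113.4, 118.2 and 110.7 FPKM on day 4 of RA and 217.5, 218.2 and 230.1 on day 10. In RA/CHIR it read 70.6, 72.1 and 62.4 FPKM on day 4, stayed at 62.2, 58.3 and 61.5 on day 10, and read 148.6, 135.9 and 151.8 on day 16. Each RA/CHIR group lay below the RA group of the same day, by -0.73 ± 0.07 log2 units on day 4, -1.52 ± 0.07 on day 7, -1.85 ± 0.07 on day 10 and -0.93 ± 0.07 on day 16 (limma, adjusted p from 6.64e-09 down to 2.34e-17). Ccnd3 thus made up 96.5% of the summed D-type cyclin FPKM in mES, 65.0% on day 10 of RA and 53.8% on day 10 of RA/CHIR. The sum itself was 381.1 ± 53.7 FPKM in mES, 341.7 ± 8.46 on day 10 of RA and 112.9 ± 1.47 on day 10 of RA/CHIR (SD, n = 3). The RA sum lay within 1 SD of mES, and the RA/CHIR sum lay below every library of both. The share of Ccnd2 was 0.409% in mES, 23.8% on day 10 of RA and 36.5% on day 10 of RA/CHIR.

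**Figure D4:**
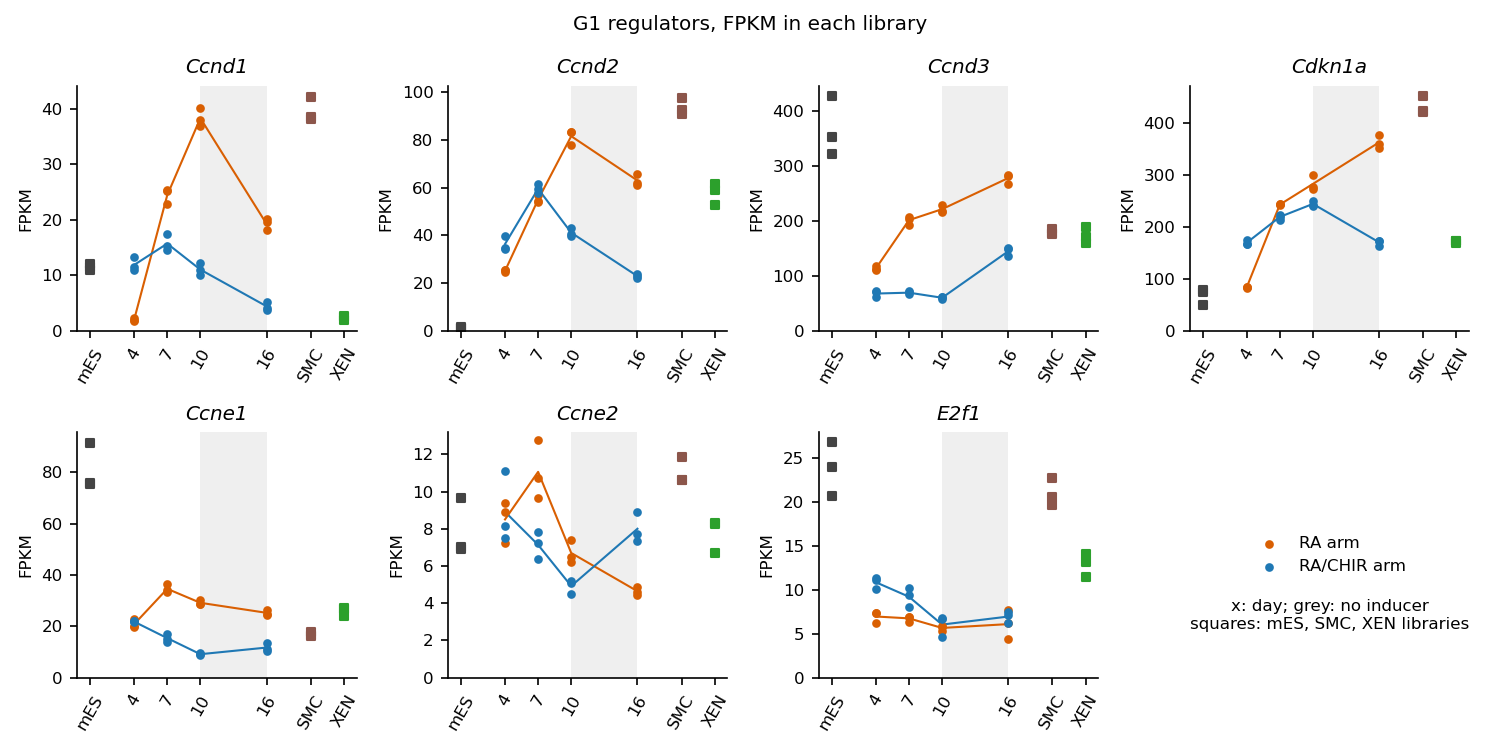
FPKM of the 7 G1 regulators in each library by day, with lines through the group means of the RA and RA/CHIR arms, grey for the days without inducer, and squares for mES, SMC and XEN. Ccnd1 is higher in RA/CHIR on day 4 (11.9 against 2.05 FPKM) and higher in RA on day 10 (38.3 against 11.1). Cdkn1a is above every mES library in both arms from day 4, when it averages 84.3 FPKM in RA and 169.9 in RA/CHIR.

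Cyclin E, which acts with CDK2 at the start of S phase, also split by arm. Ccne1 averaged 80.9 ± 9.11 FPKM in mES, and both arms stood near each other on day 4 at 20.8 ± 1.75 in RA and 21.8 ± 0.217 in RA/CHIR. By day 10 Ccne1 was 29.2 ± 0.908 FPKM in RA and 9.13 ± 0.326 in RA/CHIR, a difference of -1.57 ± 0.08 log2 units (limma, adjusted p = 1.04e-14). On day 16 the difference was -1.05 ± 0.08, which lost the call under TMM-type scaling (-0.96) and without replicate 2 of RA/CHIR (-0.98). Ccne2 averaged 4.64 ± 0.224 FPKM on day 16 of RA and 8.0 ± 0.821 on day 16 of RA/CHIR, after 6.70 ± 0.621 and 4.92 ± 0.393 on day 10. Its 2 steps differed by 1.05 ± 0.18 log2 units (adjusted p = 4.11e-05), a call lost without replicate 1 of day 10 RA (0.98), replicate 3 of day 10 RA/CHIR (0.99) or replicate 1 of day 16 RA/CHIR (0.98). E2f1, the factor that activates replication genes, averaged 23.8 ± 3.05 FPKM in mES, 5.65 ± 0.351 on day 10 of RA and 6.03 ± 1.18 on day 10 of RA/CHIR, and the arms that day differed by 0.07 log2 units (95% interval -0.21 to 0.35; limma, adjusted p = 0.711).

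Cdkn1a (chr17:29090976-29100727), which encodes the CDK inhibitor p21, read 79.5, 74.4 and 50 FPKM in mES. It read 83.5, 84.4 and 84.9 FPKM on day 4 of RA and 175.3, 167.7 and 166.8 on day 4 of RA/CHIR. The RA/CHIR arm was thus clear of the rest, by 1.0 ± 0.09 log2 units over RA (limma, adjusted p = 8.33e-10), a call lost under TMM-type scaling (0.99), under quantile normalization (0.94) and without replicate 1 of RA/CHIR (0.98), and, at 0.997, without replicate 1 of RA. On day 10 the means were 283.1 ± 14.5 FPKM in RA and 244.6 ± 5.40 in RA/CHIR, which are 2.07 ± 0.09 and 1.86 ± 0.09 log2 units above mES. From there the arms parted again, to 363.0 ± 13.6 FPKM on day 16 of RA and 170.6 ± 5.85 on day 16 of RA/CHIR. That difference was -1.08 ± 0.09 log2 units (adjusted p = 5.58e-11), and -0.99, no longer called, under TMM-type scaling.

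Of 6 other CDK inhibitor genes, 2, 3, 3 and 3 were called lower in RA/CHIR than in RA on days 4, 7, 10 and 16, where 4.28%, 6.61%, 9.07% and 12.9% of all genes were. Cdkn1c, which encodes p57, read 97.8, 97.3 and 98.3 FPKM on day 4 of RA and 9.86, 11.3 and 12.3 on day 4 of RA/CHIR, against 12.9, 16.9 and 12.8 in mES. The RA arm alone was high, and on day 10 the means were 209.3 ± 9.85 and 17.4 ± 1.15 FPKM, a difference of -3.52 ± 0.09 log2 units (limma, adjusted p = 9.66e-21). Cdkn2b, which encodes the CDK4 and CDK6 inhibitor p15, averaged 99.0 ± 1.86 FPKM on day 10 of RA, 27.8 ± 2.54 on day 10 of RA/CHIR and 2.45 ± 0.259 in mES. Cdkn2a averaged 300.6 ± 2.81, 143.1 ± 3.58 and 38.4 ± 1.37 FPKM in the same groups, and its FPKM does not separate its p16 and ARF products. Cdkn1b, which encodes p27, ran the other way on day 10, at 18.5 ± 1.67 FPKM in RA and 26.9 ± 1.29 in RA/CHIR. It was higher in RA/CHIR by 0.52 ± 0.07 log2 units (limma, adjusted p = 3.71e-07), short of the minimum of 1 for a call.

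The 2 reference lines stood apart. SMC was the low line, with 20 of 22 replication and 13 of 14 mitosis genes called lower than in mES (all genes 22.2%). The exceptions were Rrm1, higher at 139.9, 137.2 and 137.6 FPKM (0.86 ± 0.07 log2 units), Tyms (-0.60) and Birc5 (-0.89). Cdkn1a averaged 432.3 ± 16.5 FPKM in SMC and Ccnd2 93.6 ± 3.65, the highest means of all 11 groups for both genes. XEN kept more of the classes, with 12 of 22 replication and 3 of 14 mitosis genes called lower than in mES (all genes 18.7%). Cdc6 read 38.1, 36.3 and 38.4 FPKM in XEN, above every other library, and Birc5 read 169.9, 163.4 and 179.3. Birc5 was 0.96 ± 0.12 log2 units above mES, and 1.12 without replicate 3 of the mES. XEN exceeded SMC in 26 of the 43 genes and was below it in 3 (all genes 12.5% and 17.2%). Ccnd1, at 2.45, 2.75 and 1.99 FPKM in XEN and 42.0, 38.5 and 38.1 in SMC, made the largest of these differences.

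On day 16 of RA, 5 of the 43 genes were called against SMC (all genes 25.5%): Rfc3 and Cdt1 were higher, and E2f1, Ccne2 and Ccnd1 lower. At any size 11 of 14 mitosis genes were higher than in SMC (all genes 35.6%). Cdt1, the partner of CDC6 in loading the helicase, averaged 27.1 ± 2.52 FPKM against 12.9 ± 0.297 in SMC, and E2f1 averaged 6.08 ± 1.65 against 20.9 ± 1.56. The call of Cdt1 was lost without replicate 3 of RA (0.94) and under TMM-type scaling (0.95), and that of Ccnd1 without replicate 1 of RA (-0.96), without replicate 1 of SMC (-0.96) and under quantile normalization (-0.91). On day 16 of RA/CHIR, 14 genes were called lower than in XEN and none higher (all genes 8.64% and 14.5%), 5 of them replication genes and 7 mitosis genes. Birc5 was 1.77 ± 0.12 log2 units lower, at 45.6, 49.1 and 53.3 FPKM, Rrm2 differed by -1.47 ± 0.06 and Ccnd2 by -1.29 ± 0.06. Cdkn1a was close to XEN, at 170.6 ± 5.85 against 172.4 ± 1.99 FPKM (difference -0.02, 95% interval -0.20 to 0.17). Of all calls in that comparison 62.7% were higher, and 50.4% under quantile normalization.

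Of 43 further replication genes, 34 were called lower than in mES on day 10 of RA (all genes 16%) and 31 on day 10 of RA/CHIR (15.5%). Of 48 further mitosis genes, 46 and 47 were. On day 16 the counts were 35 and 44 in RA (all genes 16.3%) and 24 and 36 in RA/CHIR (18.3%). Without replicate 3 of the mES the 8 counts moved by at most 2. Among the further replication, mitosis and G1 genes, the arms differed most on day 16 in Mybl2, B-Myb, which works with the CHR-binding complex: 243.7 FPKM in mES, 7.52 on day 16 of RA and 72.8 on day 16 of RA/CHIR, a difference of 3.12 ± 0.07 log2 units (limma, adjusted p = 8.99e-23). Orc1, the largest subunit of the origin recognition complex, averaged 12.9 FPKM on day 16 of RA/CHIR and 2.77 in RA, and Cdk2, the cyclin E kinase, 94.8 and 35.4. From day 10 to day 16 of RA/CHIR, Tk1, thymidine kinase, rose by 1.66 ± 0.13 log2 units and Kif23, a kinesin of cytokinesis, by 1.27 ± 0.16. Of 19 genes of p53 and its targets, 6 were called higher on day 10 than on day 4 of RA (all genes 6.26%) and none in RA/CHIR (3.91%). The interaction called 6 of these 19 lower in RA/CHIR (all genes 7.83%). On day 4, 3 of them were called higher in RA/CHIR than in RA and 1 lower (all genes 3.34% and 4.28%). The median difference of the list was 0.40 log2 units on day 4 and -0.61 on day 10. Against mES without its replicate 3, 0 of the 19 were called higher and 3 lower on day 4 of RA. On day 10 of RA 3 were called higher and 2 lower, and on day 10 of RA/CHIR 0 and 3. With every library, 11.7% of all genes were lower on day 4 of RA. On day 10, 16.5% were higher and 16% lower in RA, and 14.1% and 15.5% in RA/CHIR.

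The labels do not say that reads were counted by strand. Of the 43 genes, 11 overlap another gene on the opposite strand that was listed above 5 FPKM in the median library, among them Ccnd1 (LTO1), Ccnd2 (Gm43126), Ccnd3 (Bysl) and Ccne2 (Ints8), and Rfc4 overlaps Eif4a2 at 410.2 FPKM. Their reads cannot be told apart where they overlap.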

How the data were processed

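RNA was measured in 33 libraries of 11 groups, 3 per group. Reads were trimmed with Trimmomatic 0.33, aligned to GRCm38 with HISAT2 2.0.4 and processed with Cufflinks and Cuffdiff, per the submitters' processing notes. The values are FPKM, which the authors deposited in 1 table of 52631 genes. Fragment counts were not in it, so absolute depth is unknown; shared steps among low FPKM values gave relative depths of 0.707 to 1.27 of the median library, a rough estimate.

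From these values, log2(FPKM + 1) was fitted with limma 3.58.1 (R 4.3.3; 11 group means, trended prior) for the 16508 genes with at least 1 FPKM in 3 libraries, with Benjamini-Hochberg adjustment over all of them. The log2 changes are on the log2(FPKM + 1) scale and understate changes of low genes. The script was tested on simulated data. Any of the 43 genes could be named; values per library or means were reserved for the G1 regulators and 12 others, plus up to 3 called genes per class in comparisons of arms, steps and lines, and up to 4 of each further list with the largest changes. Bub1b, Gins1, Ccna2, Rrm1, Cdc45, Cdt1 and Birc5 were named by size or role, and values of the CDK inhibitors and Cdk2 were given after they were seen. The genes, lists and tests were chosen with earlier results of these data known. Alternatives were a pseudocount of 0.1, no filter, a filter at 5 FPKM, TMM-type scaling, quantile normalization, no trend, only the groups compared, no minimum change, a replicate block and each library left out. Python 3.11.15 and matplotlib 3.10.9 drew the figures. Promoter sequences are RefSeq's.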

Additional observations from a re-analysis of the deposited data

Results flagged for a closer look

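The change over time differed between the arms, by a test of that difference in limma, for 8 of the 43 genes. These were 6 of 43 from day 4 to day 10, where 14.1% of all genes were called, and 2 of 43 from day 10 to day 16, where 14.8% were, so neither share was above that of all genes. From day 4 to day 10, RA/CHIR minus RA, the values were -3.78 log2 units for Ccnd1, -1.64 for Ccne1, -1.48 for Ccnd2, -1.21 for Cdkn1a, -1.17 for Rrm1 and -1.12 for Ccnd3. At adjusted p under 0.05 in limma and any size, Ccnd2 and Cdkn1a rose in both arms, with the larger rise in RA. The Ccnd2 rise in RA/CHIR was 0.18, and its day 4 and day 10 libraries overlapped. On day 7 of RA/CHIR Ccnd2 was higher than on either, at 57.7 to 61.5 FPKM. Ccnd1 and Ccnd3 rose in RA, and in RA/CHIR their changes of -0.10 and -0.17 did not pass. Rrm1 and Ccne1 rose in RA, by 0.33 and 0.47, and fell in RA/CHIR, by 0.84 and 1.17. From day 10 to day 16 the values were 1.32 for Cdc6 and 1.05 for Ccne2, where, at any size, Cdc6 rose in both arms and Ccne2 fell in RA and rose in RA/CHIR. The fits behind the day 4 to day 10 and the day 10 to day 16 values share the day 10 libraries.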

How the results depend on the processing

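Under the alternatives, 334 of 357 counts of called genes stayed within 1.5 times their main value and 23 moved. Reversals were counted for a fixed list of genes, the G1 regulators and the others whose values per library or means were reserved. None of these genes reversed among 6783 values. Genes named by size or role, such as Birc5, were not covered. Most of the 23 moved counts came from dropping the minimum change, which by construction can only add calls. The counts then were 26, 24, 28 and 31 for RA/CHIR against RA on days 4, 7, 10 and 16, where 42.9%, 47.3%, 55.2% and 61.9% of all genes passed, and 41 and 39 for day 4 of RA and of RA/CHIR against mES (all genes 65.7% and 60.4%). For day 10 against day 4 they were 40 in RA and 41 in RA/CHIR (all genes 50.5% and 45.2%), for day 16 against day 10 they were 28 and 36 (41.6% and 55%), and for the interactions 28 and 25 (40.6% and 43.3%). For XEN against mES the count was 38 (all genes 70.4%), for day 16 of RA against SMC 34 (66.3%), and for day 16 of RA/CHIR against XEN 37 (63.6%). TMM-type scaling gave 1 for RA/CHIR against RA on day 4. Quantile normalization gave 1 there, 10 for day 4 of RA/CHIR against mES, and 1 for day 16 against day 10 of RA; the cause was not tested. Leaving out single libraries gave 1 to 2 for RA/CHIR against RA on day 4 and 1 to 3 for the interaction from day 10 to day 16. The median of all genes for XEN against mES was -0.13, and 0.02 under quantile normalization.

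The replicate numbers are shared by all groups, but same-numbered libraries did not deviate together. Of 87 listed pairs, some of them listed in both orders, 4 correlated above 0.1 (range -0.13 to 0.11). With the replicate number as a block, 38 of the 43 genes were called on day 10 of each arm against mES, as without it. None of 437 calls of the genes on the same fixed list changed. Absolute depth is unknown, which leaves counting error of low genes such as Ccnd2 in mES ungauged, and 3 libraries a group limit every standard error.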
